A study of Mus musculus with 9 samples.

Results

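The Arp2/3 complex subunits are encoded in the mouse by 10 genes, Actr2, Actr3, Actr3b, Arpc1a, Arpc1b, Arpc2, Arpc3, Arpc4, Arpc5 and Arpc5l, and their transcripts were followed here through the exit of mouse embryonic stem cells from self-renewal, with and without the Arp2/3 inhibitor CK666. The genes were chosen by name as the subunits of the complex, from 35896 genes with quantified transcripts. The choice was made with earlier results of these data known. All 10 were tested for differential expression, and 59 annotated transcripts belonged to them. Poly-A RNA was sequenced from E14 mouse embryonic stem cells in 3 groups of 3 libraries. Cells were grown on gelatin in medium with serum. In the first group, LIF and 2 inhibitors (LIF2i) held the cells in self-renewal: the cytokine LIF, the MEK inhibitor PD0325901 at 1 µM and the GSK3β inhibitor CHIR99021 at 1 µM. The second group was withdrawn from LIF2i for 72 h, and the third was withdrawn for 72 h with 80 µM CK666. CK666 came from a DMSO stock and was renewed with the medium. The labels do not say whether the controls received DMSO, so drug and solvent cannot be told apart. All groups are 1 established cell line, and CK666 acts on the protein complex, so no targeted transcript could check the treatment.

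The Arp2/3 complex binds the side of an existing actin filament and nucleates a new filament there as a branch. It has 7 positions. ARP2 (Actr2) and ARP3 (Actr3, or its paralogue Actr3b) are actin-related proteins that form the start of the new filament. ARPC1 (Arpc1a or Arpc1b) and ARPC3 contribute to activation and branch formation, ARPC2 and ARPC4 form the core that holds the mother filament, and ARPC5 (Arpc5 or Arpc5l) ties ARP2 and ARPC1 to that core. Proteins of the WASP and WAVE families switch the complex on at membranes, mostly downstream of Rac and Cdc42 GTPases. CK666 binds between ARP2 and ARP3 and holds the complex in its inactive shape. Branched actin shapes the protrusions, the cortex and the cell contacts of stem cell colonies.

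The 2 subunits that fell under CK666, Arpc5 and Arpc4, are shown first by the 250 bases before their RefSeq starts. They share this call, while their values in the other comparisons differ. RefSeq windows on GRCm38.p6 were matched for 8 of the 10 genes. On both strands 4 motifs were searched, namely the CArG box of the actin-responsive factor SRF, the TATA box as TATAAA, the NF-Y motif as CCAAT and the GC box as GGGCGG. Capitals mark every match.
Arpc5, chr1:152766292-152766541, plus strand: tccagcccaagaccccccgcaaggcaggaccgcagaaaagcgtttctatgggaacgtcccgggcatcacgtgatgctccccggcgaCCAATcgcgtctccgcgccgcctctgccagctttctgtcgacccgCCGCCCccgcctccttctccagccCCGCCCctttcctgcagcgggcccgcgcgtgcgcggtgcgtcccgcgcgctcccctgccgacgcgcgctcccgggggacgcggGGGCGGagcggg
Arpc4, chr6:113377863-113378112, plus strand: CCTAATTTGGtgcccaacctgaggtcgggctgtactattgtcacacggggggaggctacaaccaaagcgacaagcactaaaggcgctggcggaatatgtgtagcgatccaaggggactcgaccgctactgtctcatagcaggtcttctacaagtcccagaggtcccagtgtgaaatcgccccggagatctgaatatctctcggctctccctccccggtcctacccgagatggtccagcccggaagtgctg
The Arpc5 window holds 1 NF-Y motif, first base 164 bases upstream, and 3 GC boxes, first bases 119, 95 and 12 upstream. Its GC content is 74.4%. The Arpc4 window holds none of these but 1 CArG box, which starts 250 bases upstream, at the far edge of the window, and its GC content is 57.2%. Over 32851 promoter windows, the matching 250 bases held a CArG box in 1.47%, the TATA box in 12.4%, the NF-Y motif in 33.8% and the GC box in 32.7%. No motif was common to both genes. The TATA box was in none of the 8 windows, and the CArG box was in Arpc4 alone. The GC box was in 5 of the 8 windows, with 7 copies before Arpc1b, 2 before Actr2, 2 before Arpc2 and 1 before Actr3. These are matches of letters, not binding sites.

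On GRCm38 with the GENCODE M21 annotation, Arpc1a (chromosome 5, 145083830 to 145108761) and Arpc1b (chromosome 5, 145114215 to 145130705) lie side by side on the plus strand. Arpc3 (chromosome 5, 122391878 to 122414184) and Actr3b (chromosome 5, 25759997 to 25850688) are on the same chromosome, also on the plus strand. Chromosome 1 carries Arpc2 (74236084 to 74268209, plus), Actr3 (125392905 to 125435727, minus) and Arpc5 (152766542 to 152775597, plus). Actr2 is on chromosome 11 (20062304 to 20112913, minus), Arpc4 on chromosome 6 (113378115 to 113390448, plus) and Arpc5l on chromosome 2 (39005348 to 39015877, plus). The paralogues of the ARP3 and ARPC5 positions are thus on different chromosomes. No 31-base word of any subunit's transcripts occurred in those of another subunit, so paralogues share no such read. Shared sequence with other genes was largest in Actr3 (34.2% of its words, nearly all with Gm8822, whose estimated count reached at most 4.04) and in Arpc1b (30.5%). Arpc1b overlaps Pdap1 on the opposite strand over 18.2% of its exonic bases, and use of strand in counting is not given in the sources used here. The lowest estimated count of Pdap1 was 1922 with LIF2i and 4217 without, so Arpc1b and all ratios that hold it are uncertain. Arpc4 overlaps Ttll3 on the same strand over 12.2% of its exonic bases, and Ttll3 had at most 111 counts in a library against at least 1532 for Arpc4.

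Library totals ran from 16894327 to 22550952 estimated counts, and 3 counts, the floor of detection, were 0.134 to 0.179 CPM, the counts after scaling for library size. The subunits lay far above it. Actr3b, the scarcest, had 141 to 275 counts in a library, and the other 9 had 682 to 14816. The 10 embryonic stem cell markers all reached 1 CPM in each group, with a summed level of 6382 to 7685 CPM with LIF2i, 2897 to 3027 without it and 3099 to 3656 with CK666. Blood cells would carry Arpc1b, Coro1a, Was and Rac2. The summed level of 4 blood markers was 1.78 to 4.42 CPM with LIF2i, 0.67 to 1.24 without it and 0.67 to 1.04 with CK666. Formative markers moved with the groups, at 81.8 to 109 CPM in sum with LIF2i, 952 to 2519 without it and 544 to 1780 with CK666. Trophoblast markers were at 96.9 to 106, 18.9 to 26.6 and 18.5 to 26.8 CPM in that order, and primitive endoderm markers at 11.7 to 14.5, 20.5 to 49.4 and 26.6 to 42.3 CPM. Fibroblast markers did not exceed 44.8 CPM in sum and mesoderm markers 16.5 CPM, and neural markers ranged from 23.7 to 194 CPM. The part of these cell states in the subunit results was not tested. Fewer cells of a type and less RNA per cell cannot be told apart in these bulk samples. The 3 libraries numbered 1 stood apart from the other 6: they had 15690 to 17605 genes above 0 against 18166 to 18749, and 0.422% to 0.734% mitochondrial counts against 1.08% to 1.76%. Values without replicate 1 are therefore given beside the subunit calls and ratios. For the regulators they are given as counts under CK666 only.

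Several subunits set replicate 1 apart in every group. Actr2 was 0.66 to 0.77 higher in log2 CPM in replicate 1 than in the mean of replicates 2 and 3, and Arpc4 was 0.58 to 0.64 higher. Arpc3, the ARPC3 position, was lower by that measure, at -1.05 to -0.57. Arpc1b was also lower in all 3 groups (-0.65 to -0.32), as was Arpc5l (-0.34 to -0.20), while Actr3 was higher (0.10 to 0.34). The edgeR fits compared libraries within replicate numbers, which the study calls paired.

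**Figure D1:**
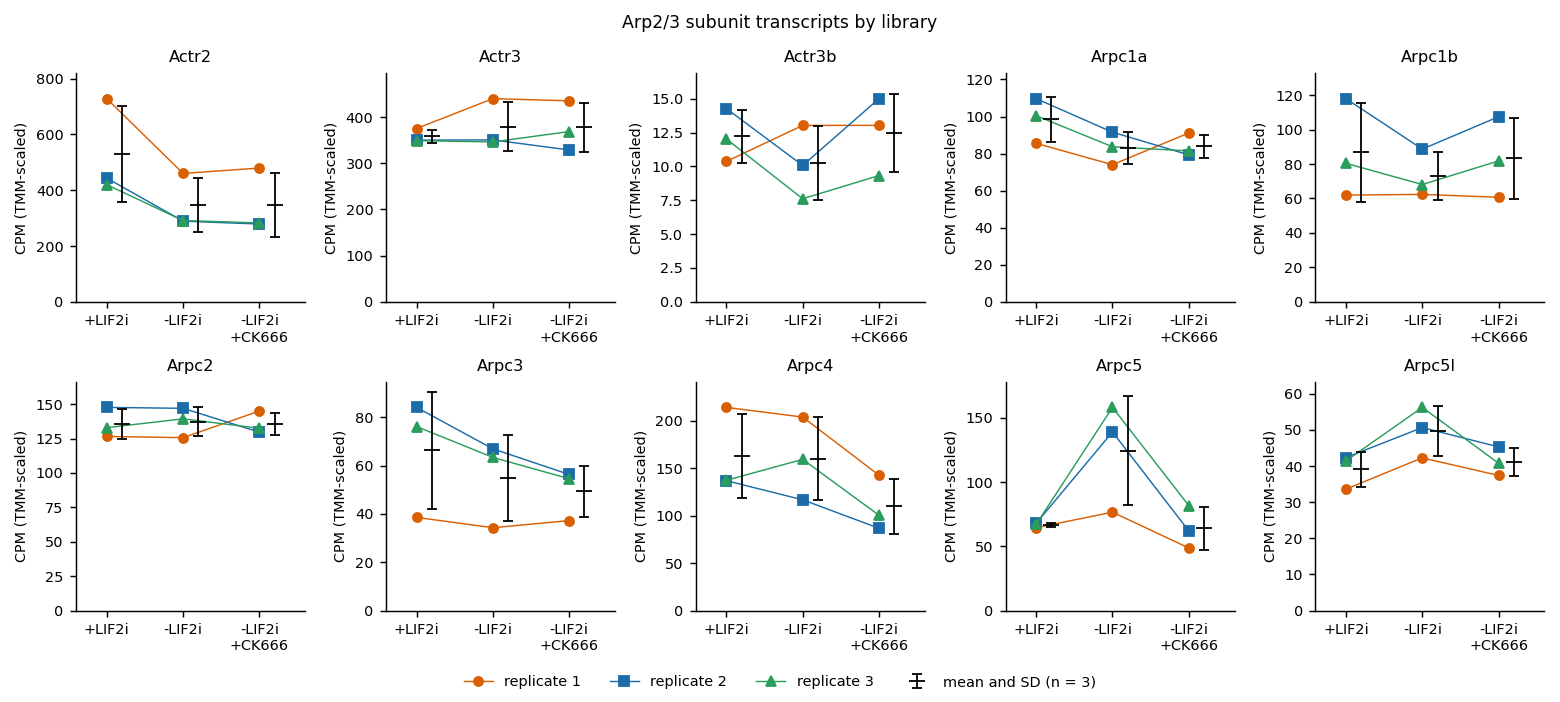
Level of each subunit gene in CPM (TMM-scaled, linear axes from 0) in every library, with lines joining libraries of one replicate number and black bars for the mean and SD of 3 libraries. Actr2 is lower without LIF2i in each replicate, Arpc5 is highest in the control group without LIF2i, and replicate 1 is offset in Actr2, Arpc3 and Arpc4.

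The first comparison asks how the subunits changed when self-renewal ended, as control cells without LIF2i against control cells with it. Arpc5 rose and Actr2 fell, and the other 8 did not pass the test. That is 2 of 10 subunits, where 40.7% of the 14648 genes tested passed (edgeR quasi-likelihood test with the replicate number as a block, Benjamini-Hochberg adjusted p under 0.05). The share among the subunits was thus below the background, though with 10 genes it rests on few calls. In DESeq2, in limma voom and with an offset for effective length, 3 of 10 passed, beside 6312, 6186 and 5062 of all genes. With DESeq2 size factors in edgeR and with a filter of at least 1 CPM in at least 3 libraries, 3 of 10 also passed, beside 5928 and 5866 genes. Without the block, 1 of 10 subunits (Arpc5) and 24% of genes passed. Without replicate 1, 3 of 10 subunits (Arpc5, Actr2 and Arpc5l) and 44.8% of genes passed. The median size of the log2 fold change was 0.25 over the subunits and 0.50 over all genes, and the signed medians were -0.12 and 0.01.

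Arpc5, the subunit that ties ARP2 to the core, stood at 64.5, 67.9 and 67.1 CPM in replicates 1, 2 and 3 with LIF2i and at 76.6, 139 and 158 CPM without. The groups did not overlap, and replicate 1 moved least. Across all genes, 40.7% had groups of 3 that did not overlap in CPM in this comparison, and Arpc5 was the single such subunit. In TPM, a measure per length explained below, 2 more subunits had no overlap. Arpc5l was at 44.0 to 50.6 TPM with LIF2i and 60.3 to 66.3 without, and Arpc1a at 95.7 to 105 and 80.1 to 86.9. The share over all genes was not computed in TPM, so this count has no background and cannot be read as a result about the subunits. For Arpc5 the log2 fold change was 0.84 ± 0.18 (SE, 3 pairs), 1.79-fold higher, with an edgeR adjusted p of 0.0053. It was 1.16 ± 0.13 without replicate 1 (edgeR adjusted p = 8.7e-05). Without replicate 2 it was 0.74 (edgeR adjusted p = 0.053) and without replicate 3 it was 0.65 (edgeR adjusted p = 0.077), so these 2 settings ended the call. The adjusted p ranged from 8.7e-05 to 0.077 over 20 alternatives, 18 of which kept the call.

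Its paralogue Arpc5l was measured at 33.6, 42.3 and 41.4 CPM with LIF2i and at 42.3, 50.7 and 56.2 CPM without. Each replicate pair was higher without LIF2i, but the groups overlapped in CPM. The log2 fold change of 0.34 ± 0.12 (SE) missed the threshold, with an edgeR adjusted p of 0.0502. It passed in 7 of 20 alternatives, among them the fit without replicate 1 (0.38, edgeR adjusted p = 0.045), and the adjusted p ranged from 0.039 to 0.31.

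Actr2, which encodes ARP2, was at 728, 443 and 420 CPM with LIF2i and at 460, 289 and 291 CPM without. Every replicate was lower without LIF2i, and the groups overlapped only through the high level of replicate 1. The log2 fold change was -0.60 ± 0.11 (SE, 3 pairs), 1.52-fold lower, with an edgeR adjusted p of 0.0018. The 3 pair differences were -0.66, -0.62 and -0.53. Without replicate 1 the log2 fold change was -0.55 (edgeR adjusted p = 0.0019). Without the replicate block the value was -0.61 with an edgeR adjusted p of 0.21, the single one of 20 alternatives in which the call was lost. Over those alternatives the adjusted p ranged from 1.3e-06 to 0.21.

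Actr3, the partner of ARP2 in the new filament's start, was at 375, 350 and 349 CPM with LIF2i and at 440, 350 and 346 CPM without. The pairs of replicates 2 and 3 were nearly equal, and the log2 fold change was 0.07 ± 0.11 (edgeR adjusted p = 0.65). Arpc2 and Arpc4, which form the core, had log2 fold changes of 0.02 ± 0.11 and -0.03 ± 0.11 (edgeR adjusted p = 0.92 and 0.87). Arpc1a, Arpc1b and Arpc3 all had negative estimates, at -0.25 ± 0.13, -0.21 ± 0.12 and -0.26 ± 0.13 (edgeR adjusted p = 0.17, 0.19 and 0.16). Arpc1a and Arpc3 were lower in 3 of 3 pairs. Actr3b was at -0.28 ± 0.23 (edgeR adjusted p = 0.38), and its pairs went both ways, with 0.33 in replicate 1, -0.50 in replicate 2 and -0.66 in replicate 3. These missed thresholds do not show that the levels were equal.

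The second comparison addresses the inhibitor: CK666 against control, both 72 h without LIF2i. Arpc5 and Arpc4 fell, no subunit rose, and the other 8 did not pass. That is 2 of 10 subunits (edgeR, block, adjusted p under 0.05) where 2.05% of genes passed in either direction and 0.894% were lowered. The call rests on the pairing: without the block, 0 of 10 subunits and 0% of genes passed in edgeR, with 1251 genes at an unadjusted p under 0.05. With the block, edgeR called 300 genes and DESeq2 1136. Without replicate 1, the count was again 2 of 10 (Arpc5 and Arpc4), where 12.3% of genes passed. No subunit had groups that did not overlap in CPM, against 16.5% of genes. In TPM, 2 subunits had no overlap. Arpc5 was at 45.8 to 66.1 TPM with CK666 and 74.9 to 127 in the control, and Arpc5l at 49.0 to 52.2 and 60.3 to 66.3. The share over all genes was not computed in TPM, so this count too has no background and cannot be read as a result about the subunits. The median size of the log2 fold change was 0.14 over the subunits and 0.26 over all genes, and the signed medians were -0.01 and 0.02.

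Arpc5 was at 48.7, 62.0 and 81.7 CPM with CK666, against 76.6, 139 and 158 CPM in the control libraries of the same numbers. It was lower in 3 of 3 pairs, and the groups overlapped in CPM because CK666 replicate 3 lay above control replicate 1. The log2 fold change was -0.94 ± 0.18 (SE), 1.91-fold lower, with an edgeR adjusted p of 0.038. Without the replicate block it was -0.96 with an edgeR adjusted p of 0.36. Without replicate 1 it was -1.07 ± 0.13 (edgeR adjusted p = 0.0016). The call held in 12 of 20 alternatives, with adjusted p from 0.00026 to 0.36. Besides the fit without the block, it was lost without replicate 2 (-0.84, edgeR adjusted p = 0.32), without replicate 3 (-0.93, edgeR adjusted p = 0.33), and when any single library was left out among CK666 replicates 1, 2 and 3 or control replicates 2 and 3 without LIF2i (edgeR adjusted p = 0.070, 0.22, 0.13, 0.18 and 0.24). The estimate stayed between -1.15 and -0.82.

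Arpc4, a core subunit bound to ARPC2, was at 143, 86.7 and 100 CPM with CK666 and at 204, 117 and 159 CPM in the control without LIF2i. All 3 pairs were lower, by 0.52, 0.43 and 0.67 on the log2 scale in replicates 1, 2 and 3, while the groups overlapped through replicate 1. The log2 fold change was -0.54 ± 0.11 (SE), 1.45-fold lower, with an edgeR adjusted p of 0.047. Without the replicate block it was -0.54 with an edgeR adjusted p of 0.65. The call held in 7 of 20 alternatives, with adjusted p from 0.0027 to 0.65 and estimates from -0.62 to -0.45. It was lost without replicate 2 (-0.61, edgeR adjusted p = 0.30), without replicate 3 (-0.47, edgeR adjusted p = 0.46), with protein-coding transcripts only (-0.56, edgeR adjusted p = 0.055) and with an offset for effective length (-0.58, edgeR adjusted p = 0.060). Each of the 6 libraries compared was also left out on its own. It was lost without CK666 replicate 1, 2 or 3 (edgeR adjusted p = 0.077, 0.25 and 0.19) and without control replicate 1, 2 or 3 without LIF2i (edgeR adjusted p = 0.093, 0.16 and 0.27). Leaving out control replicate 2 or 3 with LIF2i, which enter only the shared spread, also ended it (edgeR adjusted p = 0.054 and 0.072). Without replicate 1 in all groups it was -0.57 (edgeR adjusted p = 0.021).

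Arpc5l was at 37.4, 45.3 and 40.8 CPM with CK666, below the control in 3 of 3 pairs, with a log2 fold change of -0.27 ± 0.12 (edgeR adjusted p = 0.27). The ARP2 and ARP3 genes had estimates near 0: Actr2 was at 479, 279 and 283 CPM (log2 fold change -0.01 ± 0.11, edgeR adjusted p = 0.97), and Actr3 was at 435, 329 and 369 CPM (-0.01 ± 0.11, edgeR adjusted p = 0.99). Arpc2 had a log2 fold change of -0.01 ± 0.11 (edgeR adjusted p = 0.97), Arpc1a of 0.02 ± 0.13 (0.95) and Arpc3 of -0.11 ± 0.13 (0.70). Positive estimates below the threshold were seen for Arpc1b (0.17 ± 0.12, edgeR adjusted p = 0.49) and Actr3b (0.28 ± 0.23, edgeR adjusted p = 0.56).

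**Figure D2:**
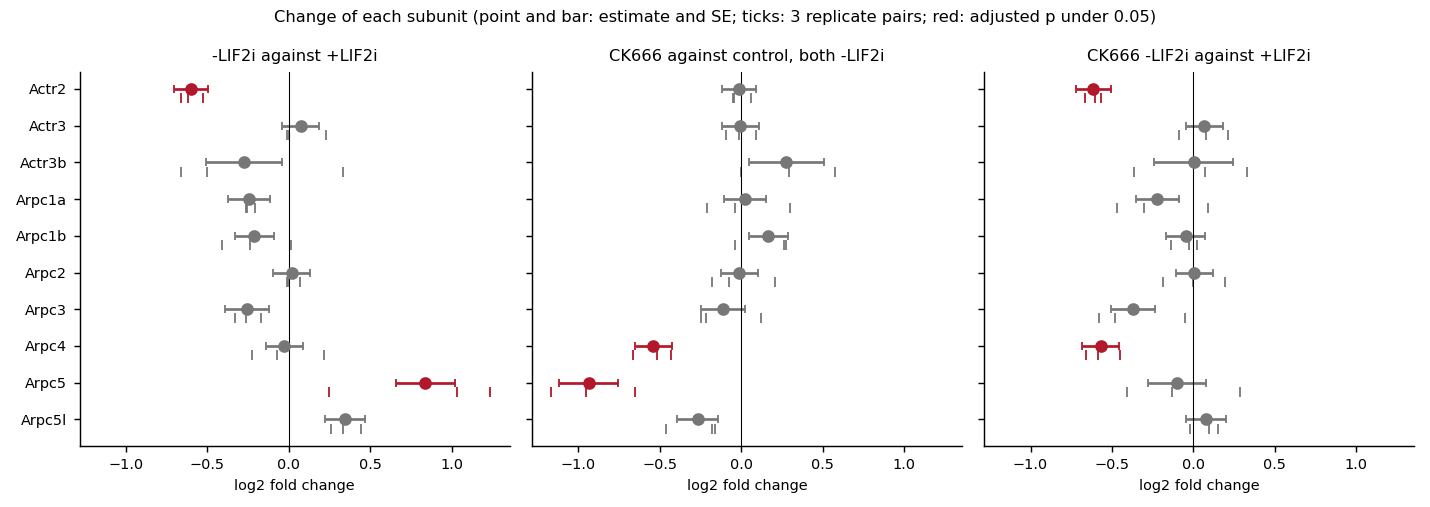
The log2 fold change of each subunit in the 3 comparisons, with points and bars for the edgeR estimate and its SE, short ticks for the 3 replicate pairs, and red for an adjusted p under 0.05. Arpc5 is at 0.84 after withdrawal and at -0.94 under CK666, Actr2 is low against self-renewal in both outer panels, and Arpc4 is low in the 2 panels with CK666.

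The third comparison sets CK666 without LIF2i against control cells in self-renewal. It shares libraries with each of the first 2 comparisons, and those 2 share the control libraries without LIF2i, so the 3 sets of values are not independent. Actr2 and Arpc4 fell, that is 2 of 10 subunits, all lowered, where 36.9% of genes passed and 17.1% were lowered (edgeR, block). Without the block 0 of 10 subunits and 20.2% of genes passed. Without replicate 1, 4 of 10 (Actr2, Arpc4, Arpc3 and Arpc1a) and 41.6% of genes passed. No subunit had groups that did not overlap in CPM, against 37.3% of genes. The median size of the log2 fold change was 0.088 over the subunits and 0.47 over all genes.

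For Actr2 the log2 fold change was -0.61 ± 0.11 (edgeR adjusted p = 0.0019, and 0.22 without the replicate block), as against -0.60 for withdrawal alone. For Arpc4 it was -0.57 ± 0.11 (edgeR adjusted p = 0.0041, and 0.19 without the block), as against -0.03 for withdrawal alone. Both calls held in 19 of 20 alternatives, with adjusted p of 3.9e-07 to 0.22 for Actr2 and 0.00024 to 0.19 for Arpc4. Without replicate 1 the values were -0.61 for Actr2 and -0.55 for Arpc4 (edgeR adjusted p = 0.0011 and 0.0074). Arpc5 stood at -0.10 ± 0.18 (edgeR adjusted p = 0.70): the CK666 level of 64.1 ± 16.6 CPM (SD, n = 3) was close to the 66.5 ± 1.8 CPM of self-renewal, with the second spread much smaller. Arpc3 was at -0.37 ± 0.13 (edgeR adjusted p = 0.057). It passed in 5 of 20 alternatives, and without replicate 1 it was -0.52 (edgeR adjusted p = 0.0061). Arpc1a was at -0.22 ± 0.13 (edgeR adjusted p = 0.22) and without replicate 1 at -0.38 (edgeR adjusted p = 0.023). The remaining 5 subunits had estimates between -0.05 and 0.08.

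Levels of different genes can be compared only per length, as TPM (transcripts scaled to a fixed sum after division by length). In self-renewal the order of mean TPM was Actr3 (283 ± 85.2), Arpc4 (246 ± 103), Actr2 (224 ± 117), Arpc2 (156 ± 19.9), Arpc3 (147 ± 40.7), Arpc1b (111 ± 22.9), Arpc1a (98.8 ± 5.3), Arpc5 (55.1 ± 8.8), Arpc5l (46.6 ± 3.5) and Actr3b (11.4 ± 2.1), each SD with n = 3. Neighbours overlapped in range down to Arpc1a, and clear steps lay between Arpc1a and Arpc5 and between Arpc5l and Actr3b. In control cells without LIF2i, Arpc5 ranked 6 instead of 8 at 104 ± 26.3 TPM and overlapped Arpc3 and Arpc1b. With CK666 it again ranked 8, at 53.3 ± 11.2 TPM, and Arpc4 at 159 ± 44.1 TPM was no longer within the range of Actr3 (296 ± 77.5).

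Since each complex holds 1 protein at each position, paralogues were also summed. The ARP3 position had the highest level in all 9 libraries, and the ratio of the highest to the lowest position was 3.93 to 4.46 in the replicate 1 libraries and 2.07 to 2.62 in the other 6. The ARPC5 position held 102 ± 12.3 TPM with LIF2i, where it was the lowest of the 7 positions in 2 of 3 libraries. It held 167 ± 28.4 TPM without LIF2i, where it was lowest in none, and 104 ± 10.2 TPM with CK666 (SD, n = 3). The control libraries without LIF2i, at 135 to 190 TPM, did not overlap either other group in TPM. In CPM they overlapped the CK666 group. Arpc5 and Arpc5l were at 81.7 and 40.8 CPM in CK666 replicate 3, and at 76.6 and 42.3 CPM in control replicate 1. Over all single genes, groups did not overlap in CPM for 40.7% on withdrawal and 16.5% under CK666. No such share was computed in TPM or for sums. The log2 difference in TPM was 0.71 for withdrawal and -0.68 for CK666. Each had a two-sided exact permutation p of 0.1, the smallest that 3 libraries against 3 allow, so these tests cannot pass 0.05. They do not use the pairing. Without replicate 1 the differences were 0.95 and -0.77. The ARPC1 position held 210 ± 20.3 TPM with LIF2i and 177 ± 12.6 without, with no overlap in TPM (log2 difference -0.24, exact permutation p = 0.1). It held 197 ± 15.7 TPM with CK666 (0.15 against control without LIF2i, with pair differences of 0.13, 0.16 and 0.16, exact permutation p = 0.2). In CPM the groups with and without LIF2i overlapped. Arpc1a and Arpc1b were at 91.6 and 88.7 CPM in replicate 2 without LIF2i, and at 85.5 and 62.0 CPM in replicate 1 with it. Without replicate 1 the ARPC1 differences were -0.23 and 0.16. From the TPM of protein-coding transcripts they were -0.17 and 0.09. Estimated counts gave -0.17 and 0.05, but these sums were not scaled for library size, so library totals enter them. The ARP3 position differed by -0.03 and 0.10 in these comparisons (exact permutation p = 0.8 and 0.6). Position sums that hold Arpc1b carry its overlap with Pdap1, and in TPM its transcripts not annotated as protein-coding.

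**Figure D3:**
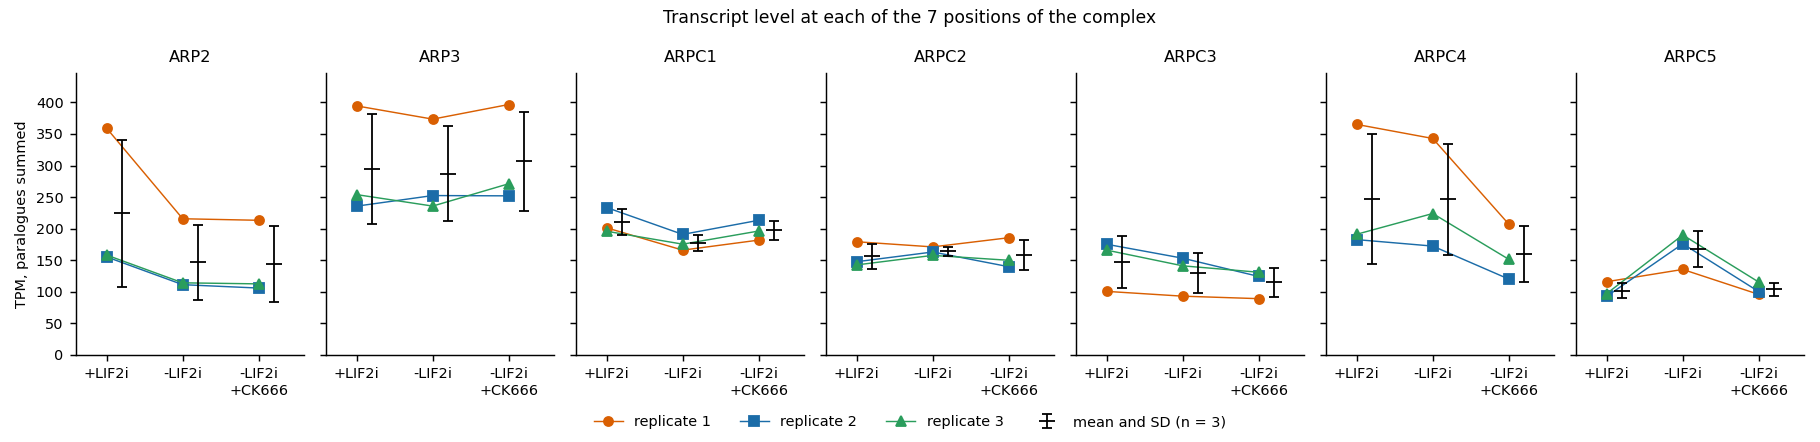
TPM summed over the paralogues of each of the 7 positions of the complex in every library, on one linear axis from 0, with lines joining replicate numbers and black bars for mean and SD of 3 libraries. ARP3 is highest in each library, and ARPC5 is at 135 to 190 TPM in control cells without LIF2i and at 92.7 to 116 TPM in the other 6 libraries.

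Paralogue use was compared as a ratio of TPM within each library. Arpc5 over Arpc5l was 1.29, 1.10 and 1.14 with LIF2i, 1.24, 1.65 and 2.00 without LIF2i, and 0.92, 0.92 and 1.35 with CK666. The higher ratios of the withdrawn control were those of replicates 2 and 3, and all groups overlapped. The log2 ratio differed by 0.45 ± 0.45 for withdrawal (SD over 3 pairs, exact permutation p = 0.2), and by 0.70 without replicate 1 and 0.27 without replicate 3. For CK666 it differed by -0.62 ± 0.21 (exact permutation p = 0.2), with pair differences of -0.43, -0.85 and -0.57, and by -0.71 without replicate 1. These tests compare the groups without the pairing. The 9 tests of this family cannot give a p below 0.1, so their missed thresholds say nothing on whether the paralogues differed in response, and the lowest adjusted exact permutation p was 0.77.

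Arpc1a over Arpc1b was 1.09, 0.70 and 0.96 with LIF2i, 1.07, 0.84 and 0.84 without, and 1.23, 0.53 and 0.68 with CK666. Over all transcripts, neither paralogue prevailed throughout, and CK666 replicate 1 lay on the other side of 1 from CK666 replicates 2 and 3. These ratios count Arpc1b-207 and Arpc1b-204, which are annotated as processed transcripts, not as protein-coding. Of Arpc1b TPM they held 26.9% ± 2.6 and 9.5% ± 5.1 with LIF2i (SD, n = 3), and 25.8% ± 3.6 and 10.4% ± 5.7 with CK666. Arpc1a-201, which is protein-coding, held 96.5% ± 1.4 of Arpc1a with LIF2i. With LIF2i, Arpc1a-201 was at 102, 92.9 and 90.9 TPM in replicates 1, 2 and 3. The coding transcripts Arpc1b-211 and Arpc1b-201 were at 48.0, 68.4 and 48.5 TPM and at 8.69, 11.8 and 8.53 TPM. With CK666, Arpc1a-201 was at 99.2, 72.2 and 78.6 TPM, Arpc1b-211 at 42.9, 72.2 and 60.5, and Arpc1b-201 at 8.75, 9.91 and 5.56. The ratios above are thus not those of coding transcripts alone, and which paralogue is higher depends on the transcripts counted. The log2 ratio differed by 0.02 ± 0.23 for withdrawal (exact permutation p = 1) and by -0.25 ± 0.44 for CK666 (exact permutation p = 0.5). Single replicates decided the CK666 value, which was -0.48 without replicate 1 and -0.047 without replicate 2, and the withdrawal value was 0.04, -0.11 and 0.12 without replicates 1, 2 and 3. Actr3 exceeded Actr3b by 19.9 to 28.0 times with LIF2i, 26.6 to 34.1 times without and 19.4 to 35.4 times with CK666. Actr3 supplied at least 95.1% of the ARP3 transcript in each library. Its log2 ratio to Actr3b differed by 0.27 ± 0.30 for withdrawal and by -0.08 ± 0.39 for CK666 (exact permutation p = 0.3 and 0.9). Without replicate 1 these were 0.44 and -0.23, and without replicate 2 they were 0.16 and 0.14.

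**Figure D4:**
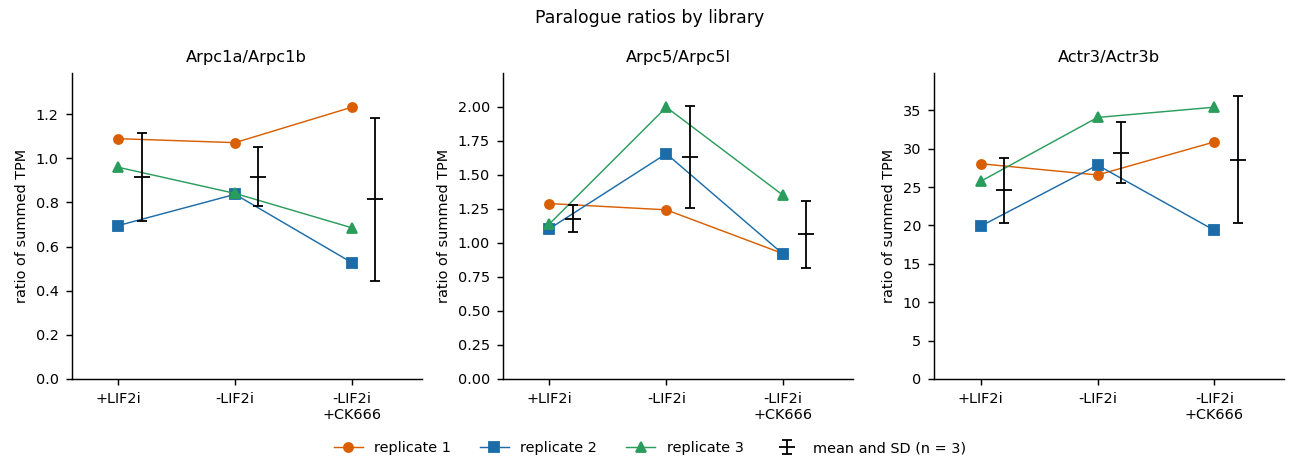
Ratio of summed TPM of the 3 paralogue pairs in each library, on linear axes from 0, with lines joining replicate numbers and black bars for mean and SD of 3 libraries. Arpc5 over Arpc5l reaches 1.65 and 2.00 in replicates 2 and 3 of the control without LIF2i, against 0.92 to 1.35 in the other 7 libraries, and Actr3 over Actr3b stays at 19.4 or above.

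In Actr2, Arpc1a, Arpc5 and Arpc5l a single transcript held at least 5% of the gene's TPM. Actr2-201 held 99.4% ± 0.3 of Actr2 TPM with LIF2i (SD, n = 3), and Arpc1a-201 held 96.5% ± 1.4 of Arpc1a. Tested per transcript, Arpc5-201 rose on withdrawal (log2 fold change 0.93 ± 0.18, edgeR adjusted p = 0.034) and Actr2-201 fell (-0.52 ± 0.09, edgeR adjusted p = 0.024). These were 2 of the 28 subunit transcripts tested, where 6.3% of 39637 transcripts passed. Neither was called without the block (edgeR adjusted p = 0.10 and 0.58), without replicate 2 (0.30 and 0.29) or without replicate 3 (0.30 and 0.32). Without replicate 1, Arpc5-201 was called (edgeR adjusted p = 0.036) and Actr2-201 was not (0.053). Under CK666, 0 of 28 and 0% of all transcripts passed in edgeR, with 2931 of all transcripts at an unadjusted p under 0.05. Arpc5-201 had a log2 fold change of -0.93 there (edgeR adjusted p = 0.40), and Arpc4-201, Arpc4-203 and Arpc4-204 had -0.46, -0.55 and -0.58 (edgeR adjusted p = 0.51, 0.44 and 0.51). Against self-renewal, 1 of 28 passed with CK666, Actr2-201 (-0.53, edgeR adjusted p = 0.027), where 4.89% of transcripts passed. That call was lost without the block and without replicate 1, 2 or 3 (edgeR adjusted p = 0.63, 0.053, 0.34 and 0.37).

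In Actr3, transcript Actr3-202 held 67.6% ± 4.7 of the TPM with LIF2i, 78.6% ± 3.4 without and 69.8% ± 4.8 with CK666, and no Actr3 transcript passed the test. In Arpc3, the share of Arpc3-201 set replicate 1 apart: with LIF2i, without LIF2i and with CK666 it was 0%, 24.9% and 2.03% in replicate 1, and between 33.5% and 53.6% in replicates 2 and 3. The Arpc3 values above carry this split between libraries. Division of reads between such transcripts is an estimate, so a listed 0 can be a failed one.

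Regulators of the complex were followed in lists of activators, partners, inhibitors and GTPases. On withdrawal, of 9 activators tested (10 listed), 2 rose and 3 fell in edgeR, where 40.7% of all genes passed. Wasf1, a WAVE protein downstream of Rac, rose from 47.8, 33.2 and 37.8 CPM in replicates 1, 2 and 3 with LIF2i to 77.7, 66.3 and 73.8 CPM without (log2 fold change 0.89 ± 0.12, edgeR adjusted p = 0.00045). Wasf2, another WAVE protein, fell from 169, 185 and 182 to 112, 131 and 151 CPM (-0.45 ± 0.12, edgeR adjusted p = 0.013, and 0.073 without the block). Whamm fell by 0.85 on the log2 scale (edgeR adjusted p = 0.0098). Was, the blood-cell WASP, fell from 3.88, 2.93 and 1.58 CPM to 0.19, 0.16 and 0.16 CPM, close to the floor of 3 counts. Wasl, the widely expressed N-WASP, was at 83.5, 92.8 and 105 CPM with LIF2i and at 96.9, 93.5 and 120 CPM without (log2 fold change 0.14 ± 0.11, edgeR adjusted p = 0.36).

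Of 12 partners in the WAVE and WASH complexes, 1 rose and 3 fell on withdrawal, against the same 40.7% of all genes. Cyfip2 rose from 72.5, 65.3 and 53.3 to 130, 138 and 145 CPM (log2 fold change 1.12 ± 0.15, edgeR adjusted p = 0.00038), while its paralogue Cyfip1 fell from 362, 189 and 212 to 175, 134 and 129 CPM (-0.76 ± 0.12, edgeR adjusted p = 0.0012, and 0.066 without the block). Both encode alternative Rac-binding subunits of the WAVE complex. Abi1 and Nckap1l, also WAVE complex subunits, fell by 0.59 and 0.68 on the log2 scale (edgeR adjusted p = 0.0034 and 0.019, the second 0.13 without the block). In the WIP family, which binds WASP proteins, 1 of 3 rose: Wipf3 was at 0.05, 1.83 and 1.58 CPM with LIF2i and at 16.5, 24.3 and 25.0 CPM without, with 1 library below the floor.

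Among 11 inhibitors and branch-removing proteins, 4 rose and 2 fell on withdrawal, again beside 40.7% of all genes. The coronins, a family with members that promote the loss of branches, went in opposite directions: Coro1a (log2 fold change 2.41, edgeR adjusted p = 6.2e-05) and Coro2a (3.05, edgeR adjusted p = 1.4e-05) rose, and Coro2b fell by 3.02 (edgeR adjusted p = 4e-06). Arpin, an inhibitor of the complex, fell from 18.1, 11.5 and 6.92 to 3.81, 3.32 and 2.86 CPM (-1.80 ± 0.31, edgeR adjusted p = 0.0017). Of 5 upstream GTPases, Rac3 rose by 2.63 and Rhog by 1.33 on the log2 scale (edgeR adjusted p = 0.00025 and 0.011). Rac2 fell from 5.55, 5.96 and 3.89 to 0.19, 0.36 and 0.27 CPM, close to the floor of 3 counts. Of 7 actin-related proteins of other complexes tested, 1 rose, Actr5 of the INO80 complex (0.68, edgeR adjusted p = 0.019, and 0.13 without the block). Without the block, withdrawal called 3 of the 9 activators, 2 of the 12 partners, 1 of the 3 WIP genes, 4 of the 11 inhibitors, 3 of the 5 GTPases and 0 of the 7 other actin-related proteins, where 24% of genes passed (edgeR).

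Under CK666, 2 genes of all these lists passed, both coronins among the 11 inhibitors, where 2.05% of all genes did. None passed of the 9 activators, 12 partners, 3 WIP genes, 5 GTPases and 7 other actin-related proteins tested. Coro1a fell from 14.3, 20.9 and 27.4 CPM in control replicates 1, 2 and 3 to 8.25, 9.97 and 10.9 CPM (log2 fold change -1.07 ± 0.22, edgeR adjusted p = 0.043, and 0.36 without the block). Coro2b rose from 8.59, 6.33 and 4.80 to 18.4, 15.1 and 10.5 CPM (1.16 ± 0.16, edgeR adjusted p = 0.019, and 0.35 without the block). Both had groups without overlap, as did 16.5% of all genes. Wasl and Wasf2 had log2 fold changes of 0.01 ± 0.11 and 0.12 ± 0.12 (edgeR adjusted p = 0.96 and 0.61). Without replicate 1, those passing were 2 of the 9 activators, 2 of the 12 partners, 0 of the 3 WIP genes, 3 of the 11 inhibitors, 1 of the 5 GTPases and 0 of the 7 other actin-related proteins, where 12.3% of all genes passed (edgeR).

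For the subunit with the smallest adjusted p on withdrawal, Actr2, and the one with the smallest under CK666, Arpc5, the protein-coding genes with the most similar profile were sought among 9791 genes whose log2 CPM averaged 3 or more. Likeness was the root mean square difference of centred log2 CPM over the 9 libraries. For Actr2 these were Sf3b1, a splicing factor subunit (0.08), Lig1, a DNA ligase (0.08), and Diaph3, a formin that nucleates unbranched actin filaments (0.09). The nearest other subunit, Arpc4, was at 0.29, with 848 genes nearer. For Arpc5 they were Psme1, a proteasome activator subunit (0.16), Tor1b (0.22) and Ehbp1l1 (0.23). Its nearest other subunit was Arpc5l at 0.37, with 153 genes nearer. The libraries of one replicate number share an offset that enters these measures.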

How the data were processed

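Poly-A RNA libraries of 9 E14 cultures were made with a NEBNext Ultra kit, and the labels call the replicates biological. Estimated counts, TPM and effective length per transcript were deposited by the authors, per the file headers, and the counts carry no further normalization. The deposited TPM divide by effective length and are scaled within a library. The submitters' processing notes name FastQC, cutadapt 1.8.1, kallisto and sleuth, with GRCh38 and mm10 as builds. The kallisto version, the transcript release and the strand setting are not given in the sources used here.

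Of 119414 transcripts, 116640 (97.7%) matched a GENCODE M21 gene by Ensembl identifier. The rest held 0.895% to 1.08% of a library's counts and were left out. Counts were summed per gene, rounded, filtered (filterByExpr), TMM-normalised and fitted in edgeR 4.0.16 (robust quasi-likelihood, R 4.3.3) over all 9 libraries with the replicate number as a block, leaving 4 residual degrees of freedom. P-values were adjusted over all 14648 genes tested and called under 0.05. Folds printed as multiples are the antilog of the fitted log2 fold change. The pairing comes from the series' design and the numbered titles, and libraries of one number deviated together: the correlation across genes of deviations from the group means was 0.30 to 0.65 for the 9 same-numbered pairs and -0.53 to 0.29 for the 18 others. All negative values involved replicate 1. Replicate 2 against replicate 3 of another group gave 0.21 to 0.29, close to the lowest same-numbered values. Deviations within a group cancel out, so these correlations are not independent. TPM ratios and position sums had two-sided exact permutation tests, which do not use the pairing. Alternatives were no block, DESeq2 1.42.0, limma 3.58.1 voom, other scaling, filters, a length offset, protein-coding transcripts only, and libraries left out.

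All subunits are named. Regulators are named if called in withdrawal or CK666 (at most the 4 of smallest adjusted p per list and comparison), with Wasl and Wasf2 in any case. Transcripts are named from at least 5% of their gene's TPM. The members, lists and tests were chosen with earlier results of these data known. The floor of 3 counts reflects counting alone, because reads lacking molecular identifiers can repeat a molecule.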

Additional observations from a re-analysis of the deposited data

How the results depend on the processing

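Without the replicate block, withdrawal called 3509 genes, CK666 called 0 (1251 at an unadjusted p under 0.05, edgeR), and the comparison with self-renewal called 2966. The subunits called were 1, 0 and 0. The transcripts called were then 1556, 0 and 1242. Actr2 under CK666 was at 0.00081 and Arpc2 against self-renewal at -3.9e-05 on the log2 scale. CK666 genes called were 565 with no low-count filter, 1136 in DESeq2, 535 in limma voom and 148 with the effective-length offset. The subunits called under CK666 were 1 with that offset and 1 with protein-coding transcripts only (258 genes called). With the offset, the log2 values of Actr3 were -0.044 (withdrawal) and 0.11 (CK666), and of Actr3b -0.12 (against self-renewal). Other signs that turned were of values near 0: Actr3 0.00046 (CK666, no filter), Actr3b against self-renewal -0.00015 (DESeq2), -0.00078 (DESeq2 size factors) and -0.00029 (CPM filter), Arpc2 against self-renewal -0.0070 (protein-coding only), and Arpc1a/Arpc1b on withdrawal -0.067 (protein-coding only) and -0.030 (estimated counts). The causes were not tested.

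With libraries left out, genes called ran from 3099 to 6588 on withdrawal, 0 to 1811 under CK666 and 2413 to 6129 against self-renewal, and subunits from 1 to 3, 0 to 2 and 2 to 4. Transcripts called ran from 0 to 1680 for withdrawal and 0 to 1154 against self-renewal. These transcript alternatives were chosen after seeing the data. On withdrawal, Arpc2 ran from -0.015 to 0.10 and Arpc4 from -0.15 to 0.075. Under CK666, Actr2 ran from -0.066 to 0.014, Actr3 from -0.055 to 0.056, Arpc1a from -0.15 to 0.14 and Arpc2 from -0.14 to 0.076. Against self-renewal, Actr3 ran from -0.0012 to 0.13, Actr3b from -0.21 to 0.20, Arpc1b from -0.10 to 0.028, Arpc2 from -0.10 to 0.10 and Arpc5 from -0.28 to 0.15. The log2 ratio Arpc1a/Arpc1b ran from -0.11 to 0.12 on withdrawal, and Actr3/Actr3b from -0.23 to 0.14 under CK666. Fits that left 2 replicates in a group assume that they vary like the others. No subunit that passed the test changed direction in its own comparison under any alternative. Among the subunits, depth limits Actr3b most, at 141 to 275 counts a library.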
